A study of Homo sapiens with 12 samples.

Results

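The comparison described is that of SKM-1 cells with a short hairpin RNA (shRNA) against NUDT21 and SKM-1 cells with a control shRNA. Its members were taken by their labels and are 6 of the 12 libraries of the study, 3 a side. SKM-1 is an established human line from a leukaemia that had followed myelodysplastic syndrome, in which mutant stem cell clones make blood poorly. The labels give marrow as the tissue of both groups, WT as the genotype of the control cells and shNUDT21 as that of the knockdown cells, and all cells were grown in the same serum-containing medium. The study asked what lowering NUDT21 does to gene expression in such cells, and the other 6 libraries hold the same pair of groups in a second line, MUTZ-1. A passage of the series' text names MUTZ-1 for both knocked-down lines, while its next passage and the sample titles name SKM-1, and the groups follow the titles. The descriptions of the knockdown libraries all carry the mark sh1, which may stand for the same hairpin, though the labels do not explain it. Neither separate cultures nor clones are named, so p-values measure how these samples scatter, and that scatter may be technical.

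NUDT21 is the smaller protein of the CFIm complex (cleavage factor Im), which binds UGUA motifs in nascent transcripts and promotes cleavage and polyadenylation at nearby, mostly distal, poly(A) sites. CPSF6 and CPSF7 are its larger partners. When CFIm is lost, many transcripts end at earlier sites, and the levels of some mRNAs change with them. Counts per gene, as used here, show levels and not the site at which a transcript ends.

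Total counts ran from 16019463 to 17477576 in the 6 SKM-1 libraries. Genes with at least 10 counts numbered 12941 to 13000 in the control libraries and 12115 to 12142 in the knockdown libraries. The libraries labelled SKM-1 were set against markers of the cells they are said to be. Of 37 granulocyte and monocyte markers in the table, 23 were under 1 CPM (a count relative to the library total) in all 6 libraries, among them MPO, ELANE, CSF1R, CD14, S100A8 and S100A9. HLA-DRA, an MHC class II gene of monocytes, was at 0.317 ± 0.0328 CPM in the control and 0.227 ± 0.183 CPM in the knockdown (mean ± SD, n = 3, as in all such pairs that follow). Other genes of the myeloid list were expressed, such as FCGR2A, an antibody receptor, at 52.2 ± 1.42 and 80.3 ± 1.34 CPM and CD68, a lysosomal protein of macrophages, at 31.7 ± 0.915 and 58.3 ± 1.79 CPM. The erythroid genes GATA1 (64 ± 1.56 CPM in the control) and HBE1 (971 ± 14.3 CPM) were well expressed in both groups, but genes of late red cells were low, with the globin chaperone AHSP at 2.83 ± 0.888 and the anion exchanger SLC4A1 at 2.93 ± 0.459 CPM in the control. Markers of mature granulocytes and monocytes were thus mostly at or near 0 in both groups, and the erythroid genes covered a wide range of levels. Whether the cells are SKM-1 was not tested.

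NUDT21 (GRCh38, chr16:56429133-56451332) was lower in each knockdown library than in any control library. The control libraries held 322, 336 and 343 CPM and the knockdown libraries 131, 132 and 129 CPM, which left 39.2% (95% interval 37.7 to 40.7). The log2 fold change was -1.35 ± 0.03 (SE), with an adjusted p of 5.48e-112 (quasi-likelihood test of edgeR, Benjamini-Hochberg over all genes, the test behind every adjusted p that follows). CPSF6 rose from 217, 223 and 208 to 292, 284 and 279 CPM (log2 fold change 0.40 ± 0.03, edgeR adjusted p = 1.54e-35). CPSF7 rose from 117, 112 and 114 to 196, 201 and 194 CPM (0.79 ± 0.03, edgeR adjusted p = 2.49e-65). The targeted subunit therefore had less mRNA and both of its partners had more. Of all genes tested, 42.1% rose and 42.3% fell, so such changes were common in this comparison.

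Expressed genes near NUDT21 on its chromosome fell as well. Genes counted as expressed at a mean of 5 CPM or more in either SKM-1 group. Of the 20 expressed genes nearest to it (from AKTIP to ARL2BP, 10 on either side), 18 fell and 1 rose, with a median log2 fold change of -1.43, and 11 of them fell further than NUDT21. IRX3, IRX6, MMP2, SLC6A2, MT2A and NLRC5, at 0 to 1.4 CPM in the knockdown, entered through the control alone, so their fall was set by that rule. Among the neighbours at 5 CPM or more in both groups, FTO, IRX5, BBS2, HERPUD1 and CPNE2 fell further than NUDT21 and the others did not. FTO, an RNA demethylase, went from 96.2, 105 and 103 to 37.4, 41.2 and 38.6 CPM, and BBS2, a cilium protein, from 74.9, 79.1 and 83.2 to 13.8, 14.5 and 14.3 CPM. SLC6A2, the noradrenaline transporter, had 5.17, 6.4 and 6.09 CPM in the control and 0 counts in the knockdown, at least 95.8-fold lower against a floor of 3 counts over the group. OGFOD1, the direct neighbour, rose from 101 ± 1.66 to 122 ± 1.88 CPM (0.28 ± 0.04, edgeR adjusted p = 7.65e-13), and the nuclear pore gene NUP93 was at 179 ± 2.93 and 180.0 ± 1.33 CPM (edgeR adjusted p = 0.893). In MUTZ-1, where NUDT21 fell as well, 13 of the same 20 genes reached 5 CPM, their median was 0.09, 3 of them fell and 0 fell further than NUDT21. The medians of the 2 lines thus cover different sets of genes. Relative to the median of its own block of 52 neighbouring genes, NUDT21 changed by -0.62 in SKM-1. How much of the fall of NUDT21 in SKM-1 is its own and how much it shares with this stretch of chromosome 16 cannot be told apart.

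**Figure D1:**
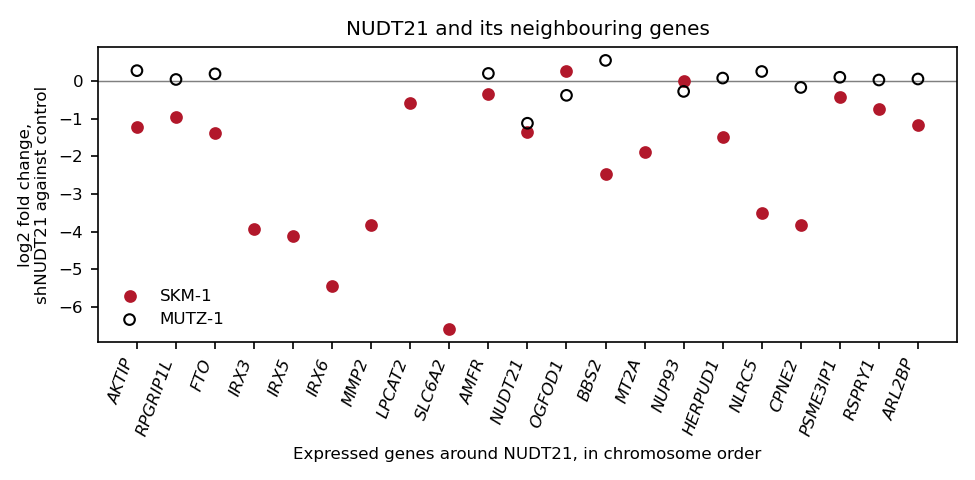
Log2 fold change (y axis, shNUDT21 against control) of NUDT21 and the 20 expressed genes (5 CPM or more in an SKM-1 group) nearest to it on chromosome 16, in chromosome order (x axis), for SKM-1 (filled points) and MUTZ-1 (open circles, for genes at 5 CPM or more in a MUTZ-1 group). In SKM-1 18 of the 20 neighbours fell and SLC6A2 is drawn at its bound of -6.58, while in MUTZ-1 NUDT21 is the lowest point.

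Across the genome the change was large and lopsided. Of 13625 genes tested, 5735 rose (42.1%) and 5765 fell (42.3%), and by at least 2-fold 1716 rose (12.6%) and 3064 fell (22.5%). Among the 11215 genes at 5 CPM or more in a group, the excess of falls grew with the size of the change. At 2-fold or more 1319 rose and 2137 fell, at 4-fold 236 and 1244, at 8-fold 34 and 902, and at 16-fold 13 and 651. The changes did not tail off evenly below 0. Between log2 fold changes of -3.5 and -3 there were 109 genes, between -5 and -4.5 there were 203, and fewer again beyond that, so the falls formed a second peak at losses of more than 16-fold. In MUTZ-1, among 9835 genes at 5 CPM or more, 122 rose and 46 fell by 2-fold or more and 1 rose and 6 fell by 16-fold or more.

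**Figure D2:**
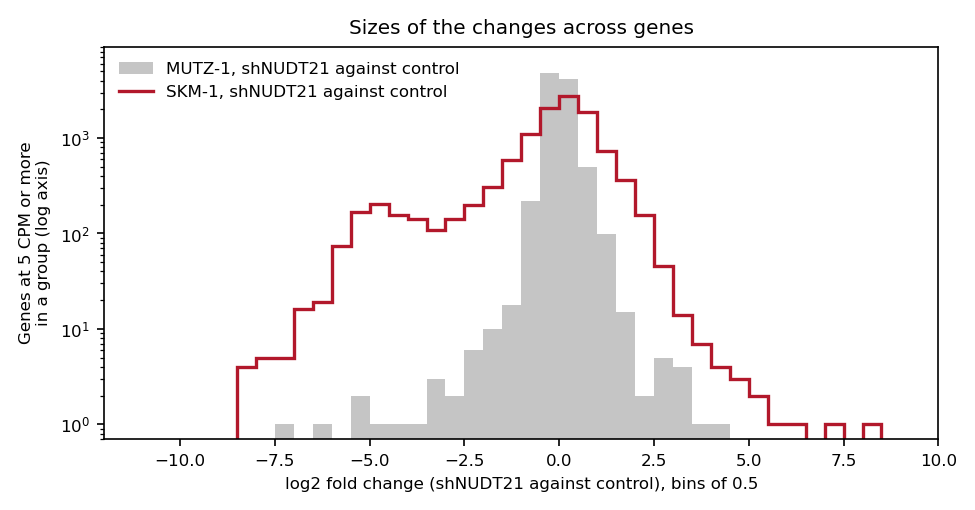
Number of genes (y axis, log scale) by log2 fold change (x axis, bins of 0.5) for genes at 5 CPM or more in a group, in SKM-1 (red line) and MUTZ-1 (grey area). The SKM-1 line has a second peak between -5.5 and -4.5 with 168 and 203 genes in its 2 bins.

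Many genes went from clear expression to near absence, and few went the other way. A total of 359 genes were at 5 CPM or more in the control and under 1 CPM in each knockdown library, against 21 in the opposite direction. With 3 counts or fewer over the 3 knockdown libraries and a mean of at least 5 CPM in the control there were 15 genes, and 0 in the reverse. COL13A1, a transmembrane collagen, had 10.5 ± 0.775 CPM in the control and 0 counts in the knockdown, at least 171-fold lower. SRPK3, a kinase of splicing factors, was at least 96.4-fold lower. INHBB, a subunit of activins and inhibins, had 7.18 ± 0.505 CPM in the control and 1 count in the knockdown, a ratio of 351 (95% counting interval 62.9 to 13849). GPA33, a cell surface glycoprotein, had 2 counts in the knockdown (ratio 160.2, interval 44.3 to 1323). In bulk RNA, fewer cells that express a gene and less of its RNA per cell cannot be told apart.

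The 12 genes with the largest fall among those at 20 CPM or more in the higher group were PRSS56, SULF1, SEMA5A, MGAM, WIF1, NRK, SIPA1L2, SPINK5, SEMA3C, UST, NRN1 and MYH7B. PRSS56, a secreted protease, went from 80.3, 80.5 and 82.5 to 0.125, 0.239 and 0.372 CPM (log2 fold change -8.32 ± 0.15, edgeR adjusted p = 1.01e-125). SULF1, which trims sulfate groups from heparan sulfate outside the cell, went from 48.4, 46.9 and 42.9 to 0.125, 0.12 and 0.186 CPM (-8.26 ± 0.20, edgeR adjusted p = 4.87e-102). NRN1, a membrane-anchored growth factor of neurites, went from 229, 231 and 236 to 2.82, 3.11 and 1.55 CPM. Most of these proteins are secreted or sit at the cell surface.

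The 12 largest rises under the same rule were those of LMO3, NTS, MS4A4A, ARHGAP15, NEFH, AQP1, MS4A3, MAGEB1, NMU, MYO16, SCN9A and TEX15. LMO3, a LIM-domain transcriptional cofactor, went from 0.112, 0.109 and 0 to 21.9, 23.7 and 18.4 CPM (8.03 ± 0.28, edgeR adjusted p = 5.17e-69). NTS, the precursor of the peptide neurotensin, went from 0.337, 0.0543 and 0.287 to 37, 31.9 and 33.2 CPM (7.20 ± 0.21, edgeR adjusted p = 3.04e-84). ARHGAP15, a RAC-inactivating protein of leukocytes, went from 1.57, 3.09 and 1.84 to 51.3, 51.3 and 48.9 CPM. MS4A3, a haematopoietic membrane protein of myeloid precursors, rose from 3.14 ± 0.664 to 37.1 ± 1.68 CPM, and NMU, the peptide neuromedin U, from 18.8 ± 2.23 to 167 ± 2.38 CPM.

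Most of the erythroid genes tested rose. The red cell programme is built by a small set of transcription factors, with GATA1, TAL1, LMO2, LDB1 and KLF1 at its core, which switch on globins, heme synthesis, iron uptake and the spectrin-based membrane skeleton. Of the 21 erythroid transcription factors tested, 16 rose and 5 fell, with a median log2 fold change of 1.58, against 0.05 over all genes at 5 CPM or more. LMO2, which bridges the DNA-binding members of the complex, rose from 11.6, 11.8 and 11.8 to 64.1, 66.7 and 62.3 CPM (2.46 ± 0.08, edgeR adjusted p = 5.08e-63). MYB, which sustains dividing progenitors, rose from 58.9, 57 and 54.2 to 282, 279 and 281 CPM (2.31 ± 0.03, edgeR adjusted p = 3.74e-140). GATA1 rose from 62.2, 65.1 and 64.6 to 279.8, 268 and 263 CPM, and KLF1, the activator of adult globin and membrane genes, from 44.6, 44.8 and 45.8 to 175, 165 and 161 CPM. The corepressor CBFA2T3, the lymphoid and erythroid factor IKZF1 and the TAL1 relative LYL1 rose 4.9-fold, 4.17-fold and 3.82-fold. The 5 that fell were BCL11A, FOXO3, HBP1, KLF13 and SOX6. BCL11A, the repressor of fetal globin in adult red cells, fell from 16, 16.2 and 17.1 to 0.94, 0.718 and 0.806 CPM (-4.31 ± 0.15, edgeR adjusted p = 1.64e-71), and the other four fell by less than 2-fold. With a correction for gene length, SOX6 was higher in the knockdown (0.59).

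GATA1 binds the letters AGATAA and TGATAA, so the promoters of the erythroid genes that rose were read for these motifs on both strands, from 250 bases before to 50 after the start in RefSeq's GRCh38.p14 annotation. The promoters below were chosen among those with a match, to let a reader see where such letters stand. They belong to a factor (KLF1), the first enzyme of heme synthesis (ALAS2), a membrane skeleton protein (SPTB) and a blood group antigen (KEL). Each is a stretch of 100 bases of the promoter on the gene's own strand, 5′ to 3′, with the motif, or its reverse complement TTATCT or TTATCA, in capitals.
KLF1 (chr19:12887215-12887314, minus strand): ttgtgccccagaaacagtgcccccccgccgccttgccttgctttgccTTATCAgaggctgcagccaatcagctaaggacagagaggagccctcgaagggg
ALAS2 (chrX:55031052-55031151, minus strand): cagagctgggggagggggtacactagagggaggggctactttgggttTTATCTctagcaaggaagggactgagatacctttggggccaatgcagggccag
SPTB (chr14:64879897-64879996, minus strand): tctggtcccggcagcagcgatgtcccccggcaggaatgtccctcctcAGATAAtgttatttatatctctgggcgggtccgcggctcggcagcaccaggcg
KEL (chr7:142962373-142962472, minus strand): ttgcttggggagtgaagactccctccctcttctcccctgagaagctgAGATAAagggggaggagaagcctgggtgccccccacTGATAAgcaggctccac
The 2 motifs were present in 8 of the 19 red cell membrane genes that rose and have a promoter in the table (42.1%), in 3 of 13 erythroid factors (23.1%) and in 2 of 8 heme synthesis genes (25%), against 4537 of all 27305 promoters (16.6%). Of the 10 genes of the globin list that rose, only 1 has a promoter there, HBD, and it held a match. Of the 8, GYPB and GYPE are copies of each other, as are RHCE and RHD, and RHAG is a distant relative of the latter pair, so their matches are not independent. These matches describe letters and show no binding.

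All 10 genes tested of the globin list, which holds the globin chaperone AHSP beside the globins, rose, with a median log2 fold change of 1.76. On the per-length FPKM scale (fragments scaled to gene length and library total) the embryonic HBE1 led both groups, with means of 1644 in the control and 3084 in the knockdown, followed by the fetal HBG2 with 560.5 and 2175, HBG1 with 269 and 1031 and the embryonic HBZ with 168 and 723. HBZ rose from 123, 126 and 132 to 536, 573 and 628 CPM (2.19 ± 0.07, edgeR adjusted p = 7.84e-10). The minor adult HBD rose from 3.84 ± 0.262 to 24.4 ± 0.563 CPM and the adult HBA1 from 23.5 ± 3.15 to 66.2 ± 8.77 CPM. HBB, the adult beta chain, had at most 1.06 CPM in any of the 6 libraries. The pattern in both groups was thus embryonic and fetal, at a higher level after knockdown. HBG1 and HBG2, and HBA1 and HBA2, are near-identical, so reads may have been split between the members of each pair.

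The enzymes and carriers that serve hemoglobin changed less evenly. Of 14 heme synthesis genes, 9 rose and 2 fell (median 0.34). ALAS2 rose from 48.6, 51.8 and 50.7 to 226, 236 and 218 CPM (2.17 ± 0.04, edgeR adjusted p = 6.4e-114), UROD, a later enzyme of the pathway, from 167 ± 7.05 to 426 ± 6.54 CPM, and FECH, which inserts the iron, from 74.7 ± 3.03 to 161 ± 1.75 CPM. Of 17 iron handling genes, 12 rose and 5 fell (median 0.48). The transferrin receptor TFRC rose 3.45-fold to 1461 ± 21.3 CPM, its relative TFR2 rose 3.38-fold, and the iron exporter SLC40A1 rose from 17.1, 20.2 and 21.4 to 95.3, 87.5 and 91.7 CPM. The ferritin chains FTL and FTH1 rose 2.88-fold and 2.38-fold. FTL had the largest gain of all genes on the FPKM scale, from 1414 to 3847.

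Of 28 red cell membrane genes, 24 rose and 3 fell, with a median of 1.52. SPTB, the beta chain of spectrin, rose from 76.2 ± 2.84 to 296 ± 5.85 CPM. KEL rose from 35.4, 35.4 and 34.5 to 138, 141 and 141 CPM, and the Rh partner RHAG 3.61-fold. The water channel AQP1 rose most, from 1.97, 0.76 and 2.07 to 24.4, 23 and 23 CPM (3.88 ± 0.16, edgeR adjusted p = 4.21e-57). The laminin-binding BCAM fell from 24.5, 25 and 23.2 to 2.19, 2.27 and 1.55 CPM, and TSPAN33, a tetraspanin, from 16.6 ± 1.59 to 1.25 ± 0.0686 CPM. The third that fell was DMTN, by 0.23 on the log2 scale. In MUTZ-1, 10 of the 28 rose and 4 fell (24.4% and 24.6% of all genes), and the log2 change was more positive in SKM-1 for 11 and more negative for 2 (35.6% and 36.4% of all genes by the test of the difference).

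**Figure D3:**
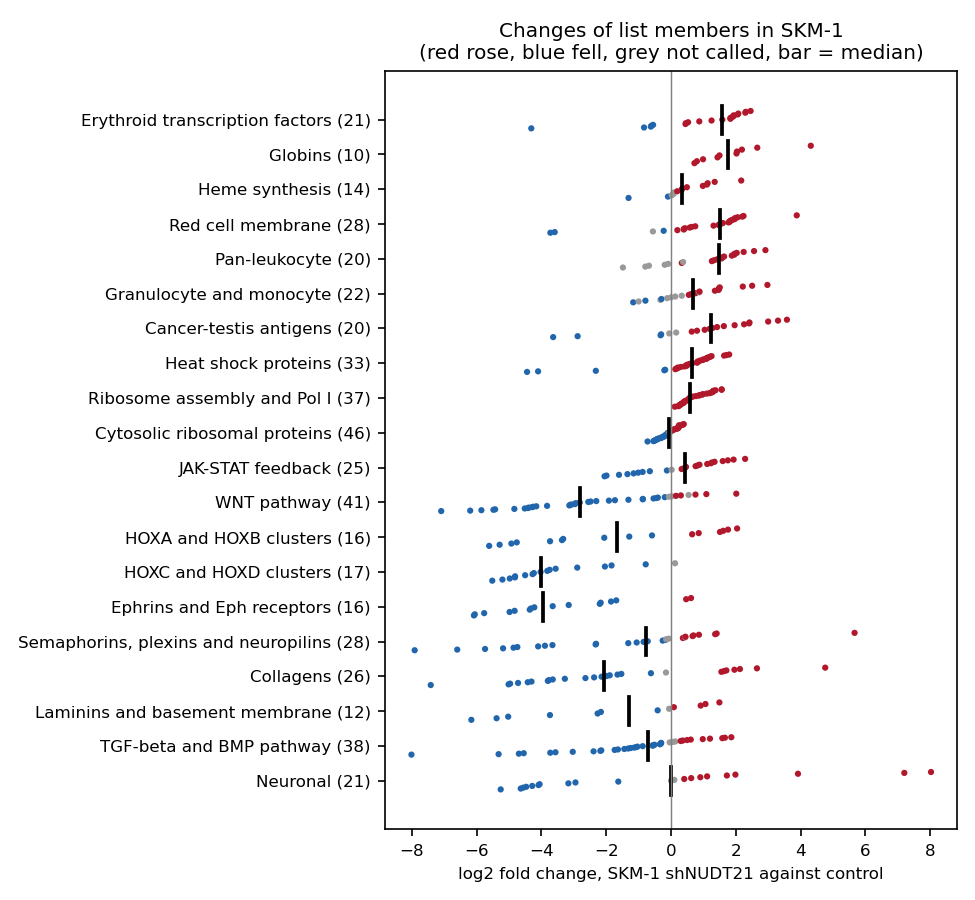
Log2 fold change in SKM-1 (x axis) of each tested member (points, red for rose, blue for fell, grey for not called) of 20 gene lists (y axis, number tested in brackets), with the list's median as a black bar. A member with 0 counts in a group is drawn at its bound. The erythroid, globin and membrane lists lie to the right with medians of 1.52 to 1.76, and the WNT, HOXC and HOXD, and ephrin lists to the left with medians of -2.82 to -4.03.

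Genes shared by blood cells moved with the erythroid ones. Of 20 pan-leukocyte genes tested, 14 rose, 0 fell and 6 did not pass the test, with a median of 1.5. CD53, a tetraspanin of leukocytes, rose from 31.3, 31.7 and 28.8 to 126, 128 and 121 CPM (2.03 ± 0.04, edgeR adjusted p = 7.55e-113). ARHGDIB, a haematopoietic inhibitor of small GTPases, rose from 10.3, 12.5 and 12.2 to 68.9, 71.9 and 66.1 CPM, and LAPTM5, a lysosomal protein, from 30.8, 36 and 31 to 128, 125 and 126 CPM. PTPRC, which encodes the common leukocyte antigen CD45, was at 48.7 ± 1.62 and 45.8 ± 4.4 CPM (edgeR adjusted p = 0.0619), and its side of the threshold depended on the scaling and on single libraries. It passed, lower in the knockdown, without control replicate 3 or without knockdown replicate 1 or 3, and its sign turned with the correction for gene length. In MUTZ-1, 2 of these 20 genes rose and 11 fell, and the change was more positive in SKM-1 for 14 and more negative for 1.

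Of the myeloid markers that could be tested, 12 of 22 rose and 3 fell (median 0.69 with genes at 0 set to their bound). CD33, a sialic acid receptor, rose from 8.48, 9.17 and 7.98 to 35.8, 43.8 and 39.6 CPM, and SPI1, the transcription factor PU.1, from 9.36 ± 0.167 to 26.2 ± 2.49 CPM. LYZ, lysozyme, rose from 9.11 ± 0.558 to 25.3 ± 0.454 CPM. The summed level of the 37 markers was 164 to 171 CPM in the control and 278 to 292 CPM in the knockdown. Among stem and progenitor genes, 7 of 17 rose and 10 fell. GATA2 and HHEX rose 3.25-fold and 3.31-fold, whereas ERG fell from 62.5, 59.3 and 59.5 to 2.69, 2.27 and 1.43 CPM and MEIS1, a partner of HOX proteins, fell 6.06-fold. KIT, the stem cell factor receptor, fell from 49.4 ± 1.82 to 7.09 ± 1.17 CPM.

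Genes of cytokine signalling moved in both directions, and those of ribosome assembly rose. Of 25 genes of JAK-STAT signalling and its feedback, 15 rose and 9 fell (median 0.43). STAT5A, which acts below the erythropoietin receptor, rose from 129.8, 130.5 and 138 to 523, 503 and 495 CPM (1.93 ± 0.03, edgeR adjusted p = 2e-131), and its feedback genes SOCS2 and CISH rose 4.88-fold and 3.03-fold. The phosphatase PTPN6, which dampens such receptors, fell from 22.4 ± 1.08 to 5.63 ± 0.266 CPM. All 37 genes of ribosome assembly and RNA polymerase I rose, with a median of 0.58, and for each of the 37 the change was more positive in SKM-1 than in MUTZ-1, where 34 fell and 0 rose. DDX21, a helicase of the nucleolus, rose from 343, 337 and 346 to 894, 871 and 891 CPM. The 46 cytosolic ribosomal proteins of the list did not follow, with 17 higher, 23 lower and a median of -0.07, and 0 of them changed by 2-fold or more. Ribosomal protein genes outside that list fell more. RPL21, on chromosome 13, fell from 1060.2, 1044 and 1065 to 476, 477 and 460.1 CPM, and RPL39, on the X chromosome, from 654 ± 5.88 to 271 ± 4.57 CPM. Ribosomal protein genes have many processed copies, so their values are uncertain.

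Heat shock genes rose broadly, with 28 of 33 higher and 5 lower (median 0.66). HSPA8, the constitutive HSP70, rose from 1357, 1318 and 1338 to 4126, 4226 and 4149 CPM (1.64 ± 0.02, edgeR adjusted p = 1.31e-168), and the inducible HSPA1A, which has a near-identical copy, rose 3.47-fold. HSPA12A and HSPA2 fell 21.8-fold and 17.2-fold. DNA replication genes rose in 30 of 43 cases and fell in 4 (median 0.46), with ORC1, CDC6 and MCM10, which load and start the replication helicase, up 2.14-fold, 2.17-fold and 2.3-fold. Among cancer-testis antigens, genes normally silent outside the germ line, 14 of 20 rose and 4 fell (median 1.24). PRAME rose from 722, 714 and 727 to 2209, 2262 and 2227 CPM, MAGEB1 from 4.55, 3.96 and 5.06 to 45.2, 46.2 and 42.4 CPM and TEX15 8-fold.

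Among the signalling lists the WNT pathway had the lowest median. WNT ligands bind Frizzled receptors and LRP coreceptors, beta-catenin then enters the nucleus with TCF and LEF factors, and AXIN2, NKD1, RNF43 and ZNRF3 are targets that feed back to damp the signal. The table holds 55 pathway genes, of which 41 could be tested, and 33 of them fell and 5 rose, with a median of -2.82. In MUTZ-1, 4 of the 41 fell and 16 rose, and the change was more negative in SKM-1 for 29 and more positive for 5. Among ligands, WNT2B fell from 20.8, 18.6 and 19.2 to 0.501, 0.359 and 0.434 CPM (-5.48 ± 0.21, edgeR adjusted p = 6.27e-66). WIF1, a secreted inhibitor that binds WNT ligands, fell from 24.2, 26.8 and 27.5 to 0.313, 0.179 and 0.062 CPM (-7.09 ± 0.23, edgeR adjusted p = 5.19e-77).

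The feedback targets fell together. AXIN2 had 467, 468 and 468 CPM in the control and 17.7, 16 and 15.4 CPM in the knockdown (-4.84 ± 0.04, edgeR adjusted p = 9.06e-186). NKD1 had 298, 287 and 284 CPM and then 5.83, 8.91 and 5.33 CPM (-5.43 ± 0.08, edgeR adjusted p = 1.31e-26). RNF43 and ZNRF3, ubiquitin ligases that remove Frizzled receptors, fell 17.9-fold and 7.83-fold. Among the nuclear factors, LEF1 fell from 182, 184 and 188 to 26.7, 25.2 and 26.5 CPM, while CTNNB1, beta-catenin itself, rose from 253 ± 3.71 to 282 ± 6.99 CPM (0.15 ± 0.03, edgeR adjusted p = 5.01e-08), though it was lower relative to the median of its chromosomal neighbours (-0.28). APC, part of the complex that degrades beta-catenin, rose from 64.9, 66.1 and 67.3 to 103, 110.4 and 122 CPM, and the receptors ROR2 and FZD4 rose 4.04-fold and 2.13-fold. TCF and LEF motifs (CTTTG, followed by A or T in both next places, on both strands) were in the promoter of 1 of the 21 WNT genes that fell and have one in the table, DKK1 (4.76%, against 13.9% of all promoters).

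MYC, a known target of WNT signalling and a driver of ribosome assembly genes, fell from 2104, 2128 and 2187 to 459.5, 472 and 465 CPM (-2.20 ± 0.02, edgeR adjusted p = 5.46e-181). Its relative MYCN fell from 20, 19.9 and 21 to 0.438, 0.538 and 0.62 CPM. MYC was still well expressed after the fall, while MYCN was under 1 CPM.

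**Figure D4:**
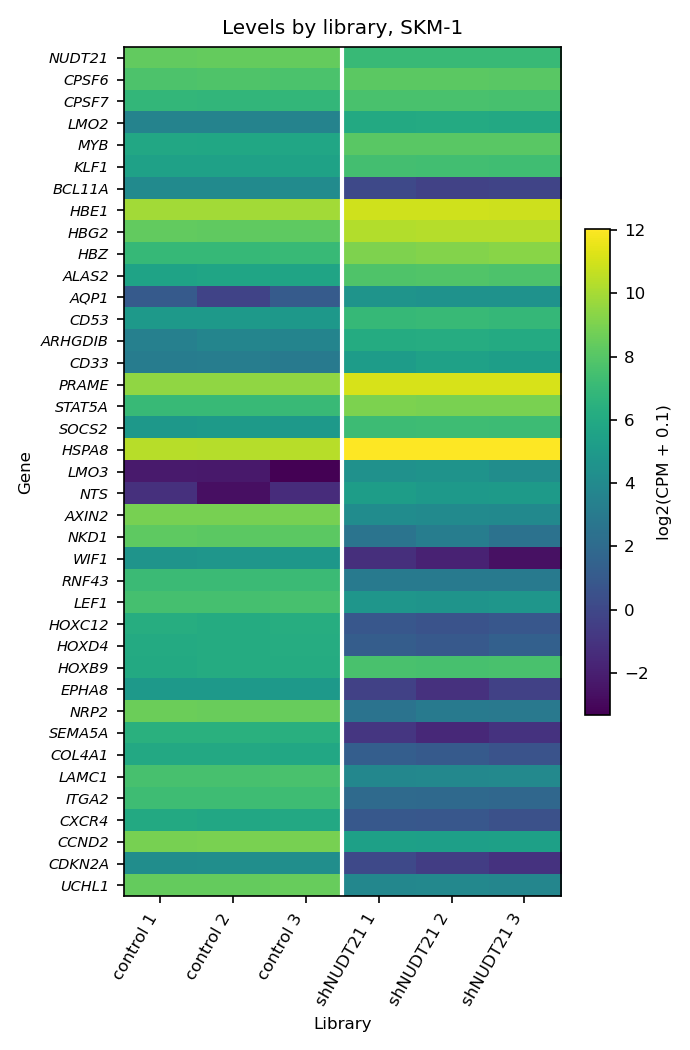
Level of selected genes described in the text (rows, chosen by hand) in each of the 6 SKM-1 libraries (columns, 3 control to the left of the white line and 3 shNUDT21 to the right), as log2(CPM + 0.1) by colour. In each gene named here the 3 libraries of a group are close, and HBZ, PRAME and HSPA8 brighten to the right of the line while AXIN2, NRP2 and UCHL1 darken.

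HOX genes, which give cells positional identity and stay active in early blood progenitors, differed by cluster. In the HOXC and HOXD clusters 16 of 17 tested genes fell and 0 rose (median -4.03), and their summed level went from 292 to 297 CPM in the control libraries to 22.2 to 24.6 CPM in the knockdown libraries. HOXC12 fell from 76.6, 70.7 and 76.2 to 1.69, 1.44 and 1.74 CPM (-5.52 ± 0.11, edgeR adjusted p = 2.95e-115) and HOXD4 from 68.4, 69.6 and 71.9 to 2.26, 1.85 and 2.54 CPM. HOXC9 was the exception, at 6.92 ± 0.919 and 7.54 ± 0.631 CPM (edgeR adjusted p = 0.471). In the HOXA and HOXB clusters 10 of 16 fell and 6 rose. Their summed level was higher after knockdown, at 222 to 230 CPM in the control libraries and 356 to 372 CPM in the knockdown libraries. HOXA13 fell from 35.7, 39.9 and 37.3 to 1.32, 1.44 and 0.93 CPM and HOXB13 49-fold, but HOXB9 rose from 64.5, 69.7 and 70.9 to 198, 191 and 196 CPM, and HOXB2 and HOXB4 rose 4.11-fold and 3.06-fold.

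Guidance and adhesion genes were lost in number. Of 16 ephrins and Eph receptors, which signal between touching cells, 14 fell and 2 rose (median -3.94). EPHA8 fell from 31.9, 32.2 and 30.8 to 0.689, 0.359 and 0.682 CPM (-5.77 ± 0.18, edgeR adjusted p = 1.21e-81) and EPHA4 from 28.9, 27.8 and 29.6 to 0.752, 1.08 and 0.868 CPM. EPHB6, a receptor without kinase activity, and EPHB4 rose less than 2-fold, and EPHB4 was lower (-0.20) relative to its chromosomal neighbours. Of 28 semaphorins, plexins and neuropilins, 17 fell and 8 rose (median -0.78). The coreceptor NRP2 fell from 381, 369 and 362 to 5.58, 7.83 and 7.32 CPM (-5.74 ± 0.06, edgeR adjusted p = 3.15e-62), and the ligand SEMA5A from 86.6, 87.4 and 83.2 to 0.438, 0.239 and 0.372 CPM. SEMA3E went the other way, from 0.169, 0.0543 and 0.115 to 7.27, 5.38 and 5.52 CPM, with its receptor PLXND1 up 2.65-fold.

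Among matrix genes, collagens and basement membrane genes followed the same direction, and integrins less so. Of 26 collagens tested, 18 fell (69.2%) and 7 rose (median -2.06). Of 12 laminins and other basement membrane genes 7 fell (58.3%) and 4 rose (median -1.29). Of 20 integrins 10 fell (50%) and 5 rose (median -0.49), against 42.3% falling and 42.1% rising over all genes tested. Metalloproteases and their inhibitors went both ways, with 9 of 21 higher, 10 lower and a median of 0.02. The fibronectin gene FN1 rose from a mean of 61.2 to one of 147 CPM. COL4A1, a network collagen of basement membranes, fell from 61.7, 62.9 and 58.7 to 2.32, 1.91 and 1.43 CPM. LAMC1, the common laminin gamma chain, fell from 193, 190.5 and 196 to 14, 14.5 and 14.9 CPM, and the linker NID1 fell 32.6-fold. ITGA2, the alpha chain of a collagen receptor, fell from 154, 155 and 153 to 3.95, 3.65 and 3.47 CPM (-5.38 ± 0.08, edgeR adjusted p = 1.26e-142). COL18A1 rose from 35.1 ± 0.8 to 115 ± 0.982 CPM and AGRN, a basement membrane proteoglycan, 2.09-fold. In TGF-beta and BMP signalling, which shapes matrix output, 26 of 38 fell and 9 rose (median -0.72). Among ligands, TGFB2 fell 23.4-fold and TGFB1 rose from 58.6, 56.1 and 61.5 to 180.1, 191 and 187 CPM.

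Genes of growth control and growth factor reception rose and fell in shares near those of all genes tested (42.1% rose and 42.3% fell). Of 27 CDK inhibitors, D and E cyclins and RB family genes, 13 rose (48.1%) and 12 fell (44.4%), with a median of 0.23. CCND2, a D-type cyclin, fell from 473, 493 and 469 to 42.2, 40.5 and 42.2 CPM (-3.52 ± 0.04, edgeR adjusted p = 1.66e-172), while CCND3 and CCNE1 rose 2.27-fold and 2.97-fold. The inhibitor gene CDKN2A fell from 18.4, 19.3 and 19 to 0.94, 0.598 and 0.372 CPM, CDKN1B 3.04-fold and RB1, on chromosome 13, 2.3-fold, which was less than its neighbours did (0.30 on the log2 scale relative to them). Of 31 cytokine and growth factor receptors, 14 rose and 14 fell (45.2% each). Their median was -0.33, and it was 0.11 to 0.22 when any 1 of the 3 control libraries was left out. AXL, a receptor tyrosine kinase, rose from 0.506, 0.597 and 0.345 to 7.77, 9.63 and 9.18 CPM, and OSMR, the oncostatin M receptor, from 2.86 ± 0.567 to 13.3 ± 1.49 CPM. The chemokine receptor CXCR4 fell from 63.8, 58.2 and 62.3 to 1.75, 1.73 and 1.3 CPM, and FGFR1, a fibroblast growth factor receptor, from 109 ± 1.97 to 3.85 ± 0.445 CPM. B2M, the light chain of MHC class I, rose from 408 ± 3.96 to 459.7 ± 4.61 CPM.

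Metabolic lists shifted less, with exceptions in single enzymes. Of 28 cholesterol genes 21 fell and 6 rose (median -0.47). Of 21 serine, glycine and one-carbon genes 12 fell and 7 rose (median -0.18, but 0.05 with a correction for gene length). PHGDH, the first enzyme of the serine pathway, went from 388, 391 and 390.4 to 23.8, 27.1 and 27.4 CPM (-3.90 ± 0.04, edgeR adjusted p = 1.68e-174), and GLDC, which splits glycine, fell 25.6-fold. Of 28 genes of ATF4 and the unfolded protein response 21 fell and 7 rose (median -0.46). CHAC1 and DDIT4 fell 6.76-fold and 3.05-fold, while SDF2L1 rose from a mean of 53.8 to 270 CPM and HSPA5 from 734 to 1256 CPM. The summed level of these 28 genes was 5689 to 5759 CPM in the control libraries and 6083 to 6173 CPM in the knockdown libraries. GAA, the lysosomal glucosidase of glycogen, fell from a mean of 226 CPM to one of 6.56 CPM.

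Markers of tissues other than blood moved in both directions, as did all genes tested (42.1% rose and 42.3% fell). Neuronal markers rose in 9 of 21 cases (42.9%) and fell in 10 (47.6%), near those shares. Their summed level was 638 to 656 CPM in the control and 415 to 421 CPM in the knockdown. UCHL1, a ubiquitin hydrolase of neurons, fell from 341, 345 and 348 to 13.8, 14.4 and 13.3 CPM, while the neurofilament gene NEFH rose from 4.27, 4.61 and 3.79 to 62.6, 64.6 and 65.1 CPM. Epithelial markers rose in 10 of 17 cases and fell in 5, with EPCAM up 5.33-fold, KRT19 up 4.72-fold and DSP, a desmosome protein, down 23.3-fold. Of 18 fibroblast markers tested 7 rose and 10 fell, and of 11 endothelial markers 8 rose and 3 fell. In the table, 11 of 26 epithelial, 11 of 27 fibroblast, 11 of 21 endothelial and 14 of 24 B cell markers were under 1 CPM in all 6 libraries. CDH1, DCN, KDR and PAX5 were among them. Other members of these lists were expressed, such as COL3A1 (means of 46.2 CPM in the control and 1.75 CPM in the knockdown), NOS3 (17.3 and 67.6 CPM) and BTK (39.4 and 108 CPM). The part of other cell types in the changes was not tested.

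The changes were also ordered along the chromosomes. Genes at 5 CPM or more were placed by their RefSeq positions and cut into 219 blocks of 48 to 55 neighbours. The median log2 fold change of a block ran from -1.5 to 0.89 in SKM-1 (SD over blocks 0.393), with 21 blocks at 0.5 or more and 19 at -0.5 or less. In MUTZ-1 the same blocks ran from -0.42 to 0.13 (SD 0.0626), with 0 beyond 0.5 either way. Chromosome 13 was lowest, with a median of -1.08 over 194 genes, of which 171 (88.1%) were lower, and its 4 blocks were at -0.86, -1.5, -1.35 and -0.88. The X chromosome followed at -0.43 and chromosome 4 at -0.36, whereas chromosomes 21, 7, 6 and 19 were at 0.58, 0.42, 0.40 and 0.36. The block of NUDT21 on chromosome 16 had a median of -0.74, and RB1 and RPL21 lie on chromosome 13.

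**Figure D5:**
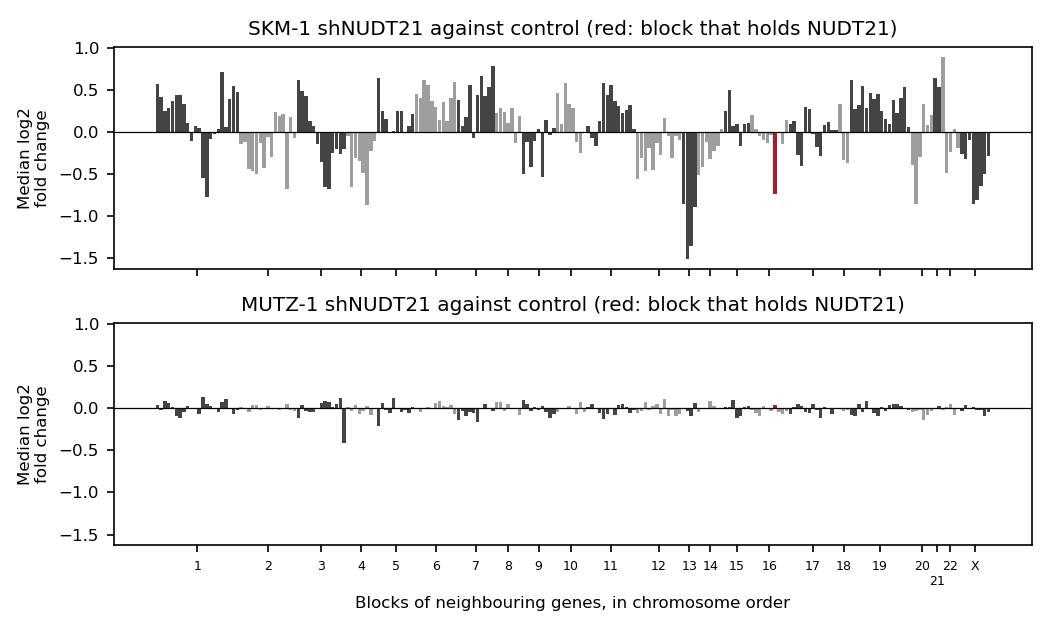
Median log2 fold change (y axis, shNUDT21 against control) of 219 blocks of neighbouring genes in chromosome order (x axis), in SKM-1 (top) and MUTZ-1 (bottom), with the block of NUDT21 in red. SKM-1 blocks reach -1.5 on chromosome 13 and 0.89 on chromosome 22, and the MUTZ-1 blocks lie between -0.42 and 0.13.

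In these 6 libraries the hairpin and the population of cells that carries it change together. A difference between subclones of the line, in gene dose or in cell state, cannot be told apart from an effect of NUDT21 knockdown, and the part of either in any gene or list above was not tested.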

How the data were processed

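RNA was measured in 12 libraries, made with a stranded mRNA kit per the labels' protocols. The authors deposited 2 tables of the same libraries, whole-number counts per gene (17518 genes) and FPKM values. Per the submitters' processing notes, fastp, HISAT2 and HTSeq were used with GRCh38. For their versions, the gene annotation and the strand setting, nothing is given in the sources used here, so genes with near-identical copies or antisense partners are uncertain. Counts were analysed with edgeR 4.0.16 in R 4.3.3. The function filterByExpr on 4 groups kept 13625 genes, TMM scaling was used, and 1 quasi-likelihood fit of all 12 libraries (8 residual degrees of freedom, biological coefficient of variation 2.44%) gave the change in SKM-1, that in MUTZ-1 and their difference. A gene rose or fell at a Benjamini-Hochberg adjusted p under 0.05. Levels are CPM after TMM scaling. Deposited FPKM served to compare genes with each other and for limma 3.58.1. DESeq2 1.42.0, other scalings, filters, a gene-length offset, a fold threshold, a replicate block and left-out libraries were alternatives.

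Libraries within each group differed beyond sampling noise (chi-square per degree of freedom 1.66 to 2.24 over 12085 to 12973 genes), so each was counted. Floors (3 counts) and ratio intervals cover counting error only. The code of the test was run on simulated counts in which few genes changed, unlike here, so that run does not bear on the p-values.

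The comparison and the 64 gene lists were chosen with earlier results of these data known. The rule for named genes took, per direction, the 12 largest changes at 20 CPM or more without overlap, the 10 largest FPKM differences, genes with 3 counts or fewer in a group (up to 8), up to 4 list members at 5 CPM or more, the CFIm subunits, lineage markers and, for the difference between lines, 12 genes of opposite direction. Further members were named for their role after their values were seen. A few genes are not reported here. Positions and promoters are those of RefSeq's GRCh38.p14, by symbol or synonym, and 19 genes at 5 CPM or more had no position.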

Additional observations from a re-analysis of the deposited data

Results flagged for a closer look

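The values in this section are differences of log2 changes, SKM-1 minus MUTZ-1, for genes called in opposite directions in the lines, with the difference itself past the threshold of edgeR's quasi-likelihood test. The 12 genes with the largest differences under the rule for named genes are given. For 11 of them the change was more negative in SKM-1. They were NKD1 (-6.45), a WNT feedback gene, CD36 (-6.20), a fatty acid and thrombospondin receptor, HOXA13 (-5.76), GAA (-5.63), PDGFRB (-5.46), a platelet-derived growth factor receptor, EPHA4 (-5.38) and AXIN2 (-5.17). The others were HSPA2 (-4.75), RECK (-4.73), an inhibitor of metalloproteases, VLDLR (-4.71), a lipoprotein receptor, and EFNA5 (-4.60), an ephrin. SEMA7A, a membrane-anchored semaphorin, was the 1 gene of the 12 that was more positive in SKM-1 (5.86).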

How the results depend on the processing

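Of 11500 genes called in SKM-1, 11437 kept their call and direction with a replicate block, which left 5704 rising and 5742 falling genes. Deviations of same-numbered libraries correlated at -0.052, 0.023 and 0.003, and those of differently numbered ones at -0.062 to 0.060. These values showed no pairing by number, though a weak one could be missed. No named gene lost its call with the block. Leaving out 1 library at a time gave 5505 to 5685 rising and 5682 to 5853 falling genes, and -1.38 to -1.33 for NUDT21. Tested against 1.5-fold with glmTreat, 2774 genes rose and 3641 fell. With limma on log2(FPKM + 1), 864 rose and 1849 fell by 2-fold or more, and low genes have their folds shrunk by that pseudocount. A gene-length offset moved the median of all genes by 0.106. It turned SOX6 to 0.59 and PTPRC to 0.22. Of the 64 list medians it moved 41 by more than the spread of replicates and changed the sign of 7, of which serine, glycine and one-carbon genes (0.05) is printed above. A filter at 5 CPM changed the sign of 7, including that of cytokine and growth factor receptors (0.12), and values relative to neighbours moved 52 and changed the sign of 4. NUP93 was at -0.0766 with library totals alone and at -0.0752 and -0.0766 with the FPKM fits. An alternative chosen after seeing the data set each gene against the median of its block of neighbours, and 9552 of the 11500 calls stayed. It took NUDT21 to -0.62 and turned CTNNB1 (-0.28), EPHB4 (-0.20) and RB1 (0.30). Genes under 1 CPM are near the limit of this depth.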

Other observations

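Of 9 mast cell, basophil and eosinophil genes tested 6 rose and 3 fell (median log2 fold change 1.70), and 11 of the 20 in the table, among them the tryptases TPSAB1 and TPSB2, were under 1 CPM in all 6 SKM-1 libraries. SIGLEC6 rose from a mean of 1.49 to 12 CPM and ENPP3, an ectonucleotidase of basophils, from 2.53 to 11.6 CPM. Of 10 T and NK cell genes tested 2 rose and 5 fell (median -1.19), and 19 of the 26 in the table were under 1 CPM. CD4, the T helper coreceptor that myeloid cells also carry, fell from a mean of 10.5 to 0.325 CPM.

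Of 28 splicing factors and SR proteins tested, 24 rose and 2 fell (median 0.45), and the change was more positive in SKM-1 than in MUTZ-1 for 25 and more negative for 3. Of 38 translation factors 29 rose and 6 fell (median 0.27), and of 20 cytosolic aminoacyl-tRNA synthetases 15 rose and 4 fell (median 0.35). Of 24 genes of 3′ end processing 14 rose and 7 fell (median 0.21). NOTCH pathway genes rose in 5 of 24 cases and fell in 11 (median -0.46). Of 16 S100 proteins and annexins tested 11 rose and 2 fell (median 1.09), with ANXA2, a membrane-binding scaffold, rising from 84.3, 81 and 80.6 to 372, 383 and 368 CPM. Of 28 lysosomal cathepsins and membrane proteins 9 rose and 16 fell (median -0.51), while CTSZ, a cathepsin of myeloid cells, rose from 42.9 ± 0.487 to 163 ± 2.97 CPM.

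Of 38 interferon response genes tested in SKM-1, 14 rose (36.8%) and 13 fell (34.2%), against 42.1% and 42.3% of all genes. In MUTZ-1 2 of the same genes rose and 32 fell, where 24.4% of all genes rose and 24.6% fell. The change was more positive in SKM-1 for 20 and more negative for 9. HDC, the enzyme that makes histamine, fell in SKM-1 from 154, 156 and 157 to 5.39, 5.44 and 5.15 CPM, and PEG10, an imprinted gene of retrotransposon origin, from 161 ± 2.48 to 7.11 ± 0.311 CPM.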
